A study of Mus musculus with 19 samples.

Results

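Selenoproteins carry selenium as selenocysteine, and *Selenop*, the gene of the secreted selenoprotein P, had lower transcript levels in neoplastic lung cells with *Cebpa*, *Cebpb* and *Cebpd* targeted, and in cells with *Lkb1* targeted, than in cells that received inert guides. The data described here are those of *Selenop* and 9 further selenoprotein genes, *Gpx1*, *Gpx3*, *Gpx4*, *Selenow*, *Selenom*, *Selenok*, *Selenof*, *Selenot* and *Txnrd2*, which were picked by name from 53558 genes to ask whether they follow *Selenop*. *Selenop* was picked because its levels in these same libraries were lower in both targeted groups, so its difference from the inert group is a description here and carries no test. Of the 10 genes, 9 passed the filter on low counts, as did 13986 genes in all, and *Selenom* did not.

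All mice, controls included, carried R26LSL-tdTomato and H11LSL-Cas9, from which Cre switches on the tdTomato reporter and Cas9 in the same cells. Cre came from the lentivirus given into the trachea and not from a lineage driver, and the virus also carried the guides: sgNeo1, sgNT and sgNeo2 (the sgInert group, 7 libraries), sgCebpa, sgCebpb and sgCebpd (sgCebpa/b/d, 7 libraries), or sgLkb1 (sgLkb1, 5 libraries). At 17 weeks after tumor initiation, live cells free of CD45, CD31, F4/80 and Ter119 were sorted from dissected tumors. Bulk RNA-seq was performed on 19 libraries of 2760731 to 9944134 counts each. Titles showed animal numbers for 14 libraries, and several libraries of a group shared an animal: the 7 sgInert libraries came from 6 numbered mice, 4 of the sgCebpa/b/d libraries from 2 and 3 of the sgLkb1 libraries from 2. Libraries rather than animals are the n below, so the p-values measure the spread between libraries. All 5 sgLkb1 libraries were from females, against 3 of 7 sgInert and 4 of 7 sgCebpa/b/d libraries.

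Selenocysteine is inserted at UGA, a codon that otherwise ends translation, when a hairpin in the mRNA (the SECIS element) recruits a dedicated elongation factor and tRNA. Most selenoproteins hold the residue in the active site of a redox enzyme, whereas selenoprotein P holds many and travels in plasma as the carrier that delivers selenium from the liver to other organs. When selenium is short, cells are known to supply some selenoproteins before others, and several transcripts, *Gpx1* and *Selenow* among them, are then degraded because the UGA is read as a premature stop.

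The coding windows below show what unites the 10 genes and sets *Selenop* apart. Each runs in the direction of the mRNA in GRCm38 (annotation GENCODE M21), with the selenocysteine codon, written as DNA, in capitals and its neighbours in lower case. Selenop, codon 59, chr15:3274848-3274850, plus strand: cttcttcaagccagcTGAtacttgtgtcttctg
Gpx1, codon 47, chr9:108339451-108339453, plus strand: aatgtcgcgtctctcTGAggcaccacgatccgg
Gpx3, codon 73, chr11:54907256-54907258, plus strand: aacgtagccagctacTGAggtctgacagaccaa
Gpx4, codon 129, chr10:80054737-80054739, plus strand: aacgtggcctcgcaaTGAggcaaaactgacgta
Selenow, codon 13, chr7:15920464-15920466, minus strand: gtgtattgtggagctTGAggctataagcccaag
Selenom, codon 48, chr11:3516273-3516275, plus strand: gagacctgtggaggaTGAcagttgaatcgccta
Selenok, codon 92, chr14:29973440-29973442, plus strand: ccaatggctggtggaTGAggaaggtaa
Selenof, codon 93, chr3:144590645-144590647, plus strand: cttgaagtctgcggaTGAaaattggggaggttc
Selenot, codon 49, chr3:58585238-58585240, plus strand: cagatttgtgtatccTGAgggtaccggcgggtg
Txnrd2, codon 526, chr16:18477772-18477774, plus strand: actgtgactggttgcTGAggctaa

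In *Selenok* and *Txnrd2* the window ends at the true stop codon, taa, because selenocysteine lies 2 residues and 1 residue before the end of the protein. The other 9 genes had 1 selenocysteine codon each. *Selenop* (chr15:3268547-3280508, plus strand, 5 exons) had 10 of them among 380 residues, the first at codon 59 and the last at codon 377. The stretch that follows is codons 316 to 379 of *Selenop* (chr15:3279513-3279704), and its 192 bases hold 7 of those codons in capitals.
Selenop, codons 316 to 379: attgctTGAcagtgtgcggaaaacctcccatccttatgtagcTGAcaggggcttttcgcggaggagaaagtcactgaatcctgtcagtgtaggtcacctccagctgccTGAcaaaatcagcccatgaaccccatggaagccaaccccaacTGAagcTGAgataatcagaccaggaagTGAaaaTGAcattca

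A stop codon that lies more than about 50 bases before the last exon junction is the usual mark of a message open to nonsense-mediated decay. In 9 of the 10 genes the first selenocysteine codon lay more than 50 bases before the last exon junction. The exception was *Selenok*, with 5 bases. Over all 24 mouse selenoprotein genes the count was 14, so the position does not set *Selenop* apart from most of the list.

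*Stk11*, which encodes LKB1, was at 2.97 to 3.68 log2 CPM in the sgLkb1 libraries and at 4.31 to 4.53 in the sgInert libraries, so the targeted transcript was lower where the label says. The targeted C/EBP transcripts were not lower in sgCebpa/b/d, at 6.17 to 6.97 log2 CPM for *Cebpa*, 2.11 to 4.58 for *Cebpb* and 5.79 to 7.38 for *Cebpd*, against 5.43 to 6.11, 1.76 to 2.79 and 5.44 to 6.93 in sgInert. *Cebpa* was higher in each sgCebpa/b/d library than in each sgInert library. Cas9 cuts can change a protein without lowering its mRNA, so these levels do not check the sgCebpa/b/d label, and the group is named by its label throughout. Summed over 10 markers of alveolar type II cells, levels were 47500 to 65600 TPM in the sgInert libraries, 38900 to 51600 in those of sgLkb1 and 30800 to 56200 in those of sgCebpa/b/d. Against sgInert, 4 and 5 of these markers passed the test as lower with *Cebpa/b/d* and with *Lkb1* targeted, where 5.36% and 2.97% of all genes did. Summed over 11 macrophage markers, levels were 23.5 to 54 TPM in the 5 libraries with no animal number and 0.53 to 12.3 TPM in the other 14. *Cd163* was at 0 in every library, *Adgre1* and *C1qc* at 0 in all of sgInert and *Folr2* at a rounded count of 0 in all of sgLkb1. Sums of 6 fibroblast markers were 3.93 to 49.2 TPM for sgInert, 29.2 to 135 for sgCebpa/b/d and 45.2 to 134 for sgLkb1, and sums of 5 endothelial markers were 5.65 to 16.6, 9.89 to 92.6 and 23.4 to 78.8 TPM. Against sgInert, 4.73% of all genes passed as higher in sgCebpa/b/d and 2.81% in sgLkb1. Of the markers, 2 for fibroblasts passed as higher in each targeted group, and 4 and 1 for endothelial cells in sgCebpa/b/d and sgLkb1. Of 5 tested markers of macrophages, 0 passed in either group. The part of these cells in the results below was not tested, except where a value is given.

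*Selenop* was the most abundant of the 10 transcripts in sgInert cells and lost that place in both targeted groups. On the TPM scale, which corrects for length and depth, its level in sgInert was 687 at the lowest, 764 at the median and 930 at the highest. In sgCebpa/b/d the corresponding levels were 239, 312 and 331 TPM. The 5 sgLkb1 libraries had *Selenop* levels of 317.21, 299.53, 364.81, 344.61 and 280.83 TPM. The lowest sgInert library, sgInert 2, thus lay above the highest targeted library, sgLkb1 3, and the targeted groups overlapped each other over most of their range.

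**Figure D1:**
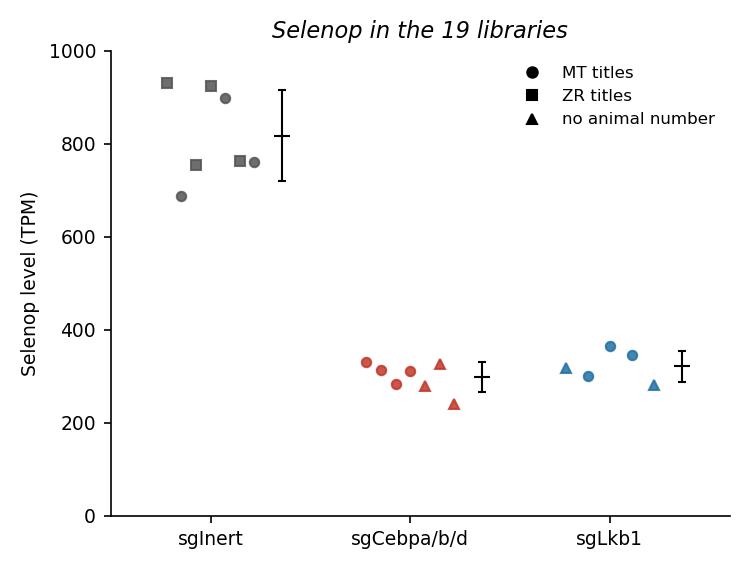
*Selenop* level (TPM, linear axis from 0) in each of the 19 libraries by virus group, with the group mean and SD and with marker shapes for the kind of library title. All 7 sgInert libraries sit between 687 and 930 TPM, and all 12 targeted libraries sit between 239 and 365 TPM.

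Mean *Selenop* levels were 817 ± 97.9 TPM (SD, n = 7) for sgInert, 298 ± 32.3 TPM (n = 7) for sgCebpa/b/d and 321 ± 33.8 TPM (n = 5) for sgLkb1. The fitted log2 fold change against sgInert was -1.51 (SE 0.08, 95% confidence interval -1.68 to -1.35) in sgCebpa/b/d and -1.56 (SE 0.09, interval -1.75 to -1.38) in sgLkb1. Both values are measured against the same 7 sgInert libraries, and both belong to the contrast by which the gene was chosen. Between the targeted groups, which the choice did not fix, the difference in *Selenop* was 0.05 on the log2 scale (sgCebpa/b/d minus sgLkb1, SE 0.08, interval -0.12 to 0.23, edgeR's quasi-likelihood test, Benjamini-Hochberg adjusted p = 0.809). Differences below -0.12 or above 0.23 lay outside this interval, which does not show that the groups were equal.

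Macrophages and fibroblasts also express *Selenop*. Median macrophage sums were 1.2, 1.12 and 2.81 TPM in the order sgInert, sgCebpa/b/d, sgLkb1, and median fibroblast sums were 17.1, 102 and 118 TPM, so the fibroblast sums were higher where *Selenop* was lower. Without the 5 libraries that had no animal number and the highest macrophage sums, *Selenop* stood at -1.48 in sgCebpa/b/d and -1.49 in sgLkb1 on the log2 scale. In bulk RNA, fewer cells that express a gene and less RNA of that gene per cell cannot be told apart. *Ccdc152*, on the opposite strand, overlaps the *Selenop* gene by 439 bases, and its fitted log2 fold changes were -1.43 (SE 0.22) and -1.51 (SE 0.25) with 10 to 243 counts per library. The authors ran RSEM with standard settings, which count without regard to strand, so reads from *Selenop* and *Ccdc152* cannot be told apart in the overlap.

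The 4 glutathione peroxidases use glutathione to reduce peroxides in different places. *Gpx1* (chr9:108338903-108340343, plus strand), the abundant cytosolic enzyme, was at 199, 277 and 360 TPM (lowest, median, highest) in sgInert and at 146, 239 and 264 TPM in sgCebpa/b/d. Its levels in sgLkb1 were 233.88, 214.74, 318.46, 271.4 and 309.78 TPM. The groups overlapped, and the *Gpx1* difference of -0.35 in sgCebpa/b/d (log2, SE 0.12, interval -0.6 to -0.1) did not pass edgeR's quasi-likelihood test (Benjamini-Hochberg adjusted p = 0.0728), nor did that of -0.24 in sgLkb1 (SE 0.13, adjusted p = 0.35). The call for *Gpx1* in sgCebpa/b/d depends on the setting: with sex as a covariate the adjusted p was 0.0232, with DESeq2 it was 0.0482, and over 15 settings it reached 0.479. Without sgInert 6 or sgInert 7 it was 0.0408 or 0.0315.

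*Gpx3* (chr11:54902453-54910377, plus strand), the secreted peroxidase of plasma, had the widest spread. In sgInert its level was 2.08, 13.4 and 24.3 TPM (lowest, median, highest), and in sgCebpa/b/d it was 4.63, 14.4 and 25.7 TPM. The sgLkb1 libraries had *Gpx3* levels of 28.6, 29.69, 30.35, 17.73 and 66.84 TPM. On the TPM scale 4 of these lay above every sgInert library and sgLkb1 4 did not. In log2 CPM, sgLkb1 1 at 4.73 and sgLkb1 4 at 3.99 both lay below the highest sgInert library at 4.76. The log2 difference of sgLkb1 from sgInert was 1.32 (SE 0.5, interval 0.28 to 2.37) and did not pass edgeR's quasi-likelihood test (Benjamini-Hochberg adjusted p = 0.136), and that of sgCebpa/b/d was 0.21 (SE 0.47, adjusted p = 0.846).

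The *Gpx3* difference in sgLkb1 passed in 5 of 15 alternative settings. These included fits by sex and by title series and also limma on log2(TPM + 1), which uses neither (1.59, adjusted p = 0.0437). In that limma fit all genes ran higher in sgLkb1, with a median of 0.18 and with 783 genes higher and 148 lower. The edgeR fit gave -0.01, 393 and 416. The 3 sgInert libraries with MT titles had 2.08, 3.71 and 9.06 TPM, below the 4 with ZR titles at 13.43 to 24.34 TPM. Among MT-titled libraries alone the *Gpx3* difference was 2.31 (adjusted p = 0.015), and with sex as a covariate it was 2.33 (adjusted p = 0.00265), both by edgeR's quasi-likelihood test. ZR titles occurred only in sgInert and titles with no animal number only in the targeted groups, so title series is confounded with group. Fits by title series therefore compare with sgInert through its 3 MT-titled libraries, which came from mice MT1161 and MT1231. Fibroblasts also express *Gpx3*, and the same 3 MT-titled sgInert libraries had fibroblast marker sums of 3.93 to 6.22 TPM against 17.1 to 49.2 TPM in the ZR-titled ones. The sources used here do not state a tdTomato gate for these libraries. Such a gate would remove fibroblasts that the virus had not reached. The part of fibroblasts in the *Gpx3* difference was not tested.

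*Gpx4* (chr10:80047166-80056439, plus strand), which reduces lipid peroxides in membranes and restrains ferroptosis, was at 37.5, 47.3 and 55.3 TPM (lowest, median, highest) in sgInert and 44.2, 47.8 and 75 TPM in sgCebpa/b/d. In sgLkb1 its level was 64.65, 50.47, 78.2, 79.02 and 70.71 TPM. The *Gpx4* differences in log2 counts were 0.01 (SE 0.14, interval -0.29 to 0.31) in sgCebpa/b/d and 0.29 (SE 0.15, interval -0.03 to 0.61) in sgLkb1, and neither passed edgeR's quasi-likelihood test (Benjamini-Hochberg adjusted p = 0.985 and 0.328). A processed copy, *Gpx4-ps2*, was itself listed at 47.8 to 84.8 TPM, so reads of *Gpx4* may be split between the loci and its level is uncertain. With the counts of both loci summed, the differences were -0.04 and 0.09.

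Of the small redox selenoproteins that sit in the endoplasmic reticulum, *Selenof* and *Selenot* did not pass in either targeted group. *Selenof* (chr3:144570304-144597680, plus strand) binds the glucosyltransferase that checks glycoprotein folding, and it was the next most abundant transcript after *Selenop* in sgInert. Its level was 344, 406 and 486 TPM (lowest, median, highest) in sgInert, 357, 427 and 498 TPM in sgCebpa/b/d, and 425.74, 411.76, 465.05, 451.02 and 452.46 TPM in the sgLkb1 libraries. The *Selenof* log2 differences were 0.06 (interval -0.09 to 0.22) and -0.08 (interval -0.24 to 0.09), the narrowest intervals of the 8 genes tested. *Selenot* (chr3:58576636-58593133, plus strand), an oxidoreductase of the endoplasmic reticulum membrane, was at 154 to 198 TPM for sgInert, 121 to 198 TPM for sgCebpa/b/d and 169 to 207 TPM for sgLkb1. Its log2 differences of -0.08 (interval -0.26 to 0.1) and -0.1 (interval -0.3 to 0.1) did not pass either.

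Of the 8 genes tested against sgInert, *Selenok* was the 1 that passed. *Selenok* (chr14:29968308-29975662, plus strand) encodes a membrane protein of the endoplasmic reticulum that works with the palmitoyl transferase DHHC6 and with the degradation machinery. Its level was 110, 114 and 136 TPM (lowest, median, highest) in sgInert, 90.8, 103 and 109 TPM in sgCebpa/b/d, and 97.93, 93.36, 87.3, 95.94 and 95.06 TPM in the sgLkb1 libraries. In log2 CPM, the 5 sgLkb1 libraries at 5.68 to 5.99 all lay below the 7 sgInert libraries at 6.3 to 6.5, and the sgCebpa/b/d libraries at 5.92 to 6.47 overlapped both groups. In TPM, which also takes account of length, the highest sgCebpa/b/d library, at 109.33 TPM, lay just below the lowest sgInert library, at 110.01 TPM. The share of all genes that lie wholly lower in TPM was not computed, so this gap cannot be set beside it.

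*Selenok* fell by 0.49 on the log2 scale in sgLkb1 against sgInert (SE 0.1, interval -0.69 to -0.29, edgeR's quasi-likelihood test, Benjamini-Hochberg adjusted p = 0.0031). It passed in 15 of 15 alternative settings, with values from -0.52 to -0.3 and a largest adjusted p of 0.0396. In sgCebpa/b/d the *Selenok* difference was -0.21 (SE 0.09, interval -0.4 to -0.03, adjusted p = 0.132, or -0.27 and 0.041 without the library sgCebpa/b/d 5), and between the targeted groups it was 0.28 (SE 0.1, interval 0.08 to 0.48, adjusted p = 0.0998). That last test did not show *Selenok* to differ between the targeted groups.

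*Selenow* (chr7:15917208-15922402, minus strand), a small cytosolic redox protein whose mRNA is sensitive to selenium supply, was at 11.8, 21.1 and 25.2 TPM (lowest, median, highest) in sgInert and 20.8, 24.4 and 28.4 TPM in sgCebpa/b/d. In sgLkb1 its level was 17.16, 31.29, 26.21, 20.88 and 19.8 TPM. The sgInert levels split by title, with 11.84 to 12.83 TPM in the 3 MT-titled libraries and 21.1 to 25.15 TPM in the 4 ZR-titled ones. The *Selenow* difference in sgCebpa/b/d was 0.42 (log2, SE 0.22, interval -0.02 to 0.87, adjusted p = 0.243 by edgeR's quasi-likelihood test) and became 1.01 (adjusted p = 0.026) with title series as a covariate. The fit with that covariate compares with sgInert through its 3 MT-titled libraries, since ZR titles occurred only in sgInert. In sgLkb1 the *Selenow* difference without the covariate was 0.15 (SE 0.23, interval -0.34 to 0.63).

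*Txnrd2* (chr16:18426384-18479073, plus strand), the thioredoxin reductase of mitochondria, was low, at 1.44, 5.17 and 7.45 TPM (lowest, median, highest) in sgInert and 4.31, 5.49 and 9.99 TPM in sgCebpa/b/d. Its levels in sgLkb1 were 5.99, 10.46, 6.4, 10.84 and 7.04 TPM. With 8 to 88 counts per library the *Txnrd2* intervals were wide, -0.61 to 0.68 around 0.03 in sgCebpa/b/d and -0.15 to 1.22 around 0.53 in sgLkb1, and neither passed. *Selenom* (chr11:3514684-3517351, plus strand), a thioredoxin-like protein of the endoplasmic reticulum, was counted 1, 2, 0, 0, 0, 0 and 0 times in sgInert 1 to 7. Its counts were 1, 0, 2, 1, 3, 2 and 23 in sgCebpa/b/d 1 to 7 and 3, 1, 2, 9 and 2 in sgLkb1 1 to 5. A difference in *Selenom* was not detectable at this depth, and the 23 counts came from sgCebpa/b/d 7 alone.

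**Figure D2:**
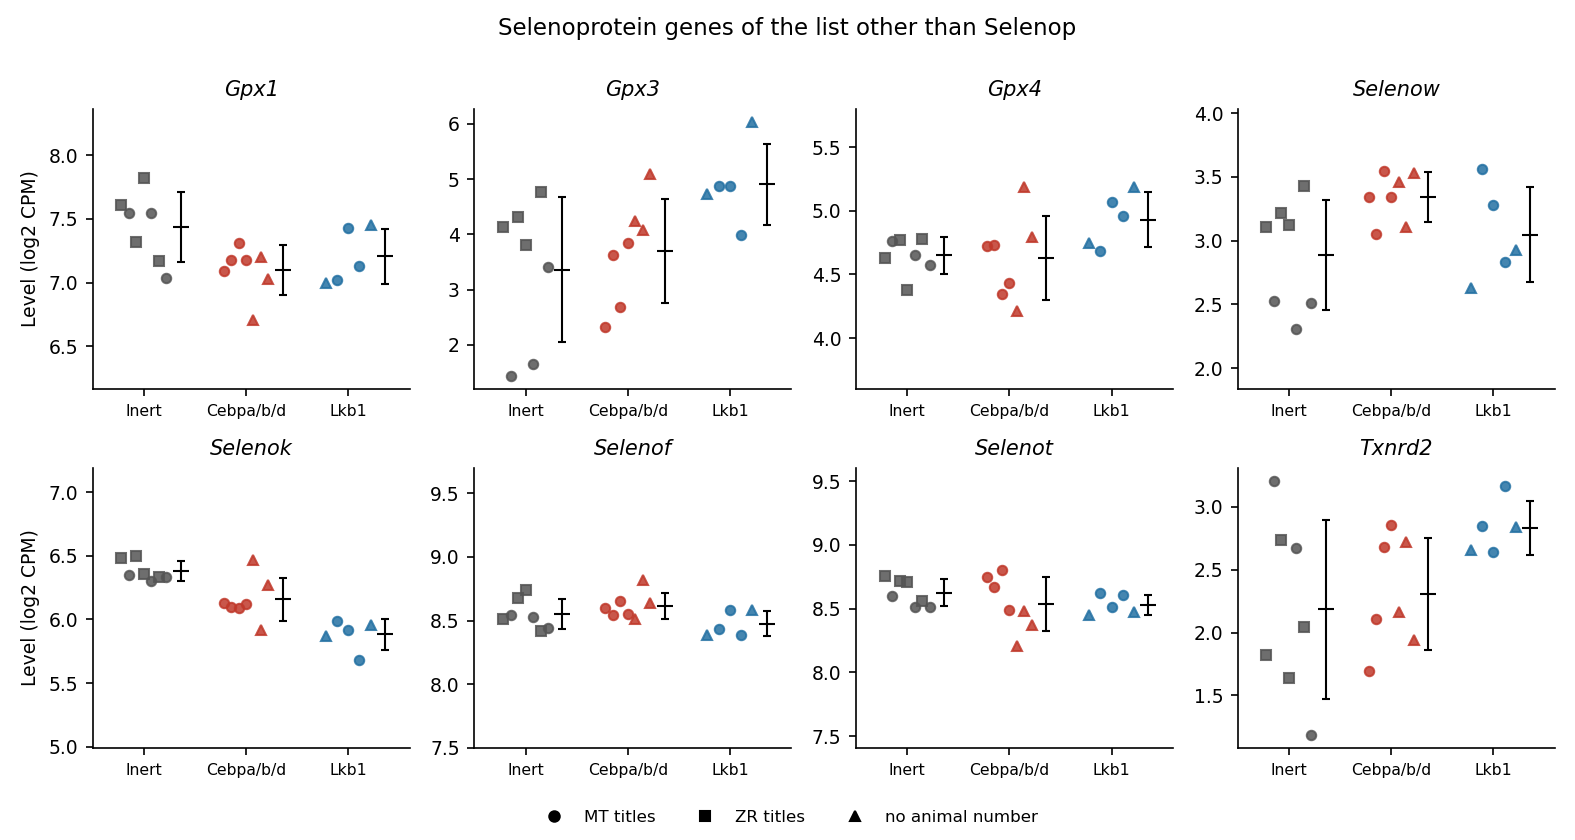
Levels (log2 CPM) of the 8 tested genes other than *Selenop* in each library by virus group, 1 panel per gene with its own axis, with group means and SDs and marker shapes for the kind of library title. The sgLkb1 libraries lie below all sgInert libraries for *Selenok*, and the groups overlap in the other 7 panels.

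Counted over the 8 tested genes other than *Selenop*, none passed in sgCebpa/b/d against sgInert by edgeR's quasi-likelihood test, where 10.1% of all 13986 genes passed, 5.36% as lower and 4.73% as higher. At an unadjusted p under 0.05 the count was 2 (*Gpx1* and *Selenok*) where 23.2% of all genes met that level, and DESeq2 called *Gpx1*, with 13% of all genes called. In sgLkb1 against sgInert, 1 of the 8 passed as lower and none as higher, where 5.78% of all genes passed, 2.97% as lower and 2.81% as higher. Between the targeted groups none of the 9 tested genes, *Selenop* included, passed, where 5.96% of all genes did, 3.12% as lower and 2.83% as higher. At an unadjusted p under 0.05 that count was 2 (*Gpx3* and *Selenok*) where 18.3% of all genes met that level, and DESeq2 called none. The median log2 difference of the 8 genes was 0.02 in sgCebpa/b/d and 0.03 in sgLkb1, beside 0.02 and -0.01 over all genes tested. In log2 CPM, libraries of the 8 genes overlapped in sgCebpa/b/d against sgInert, where 2.09% of all genes lay wholly lower and 1.28% wholly higher. In sgLkb1 against sgInert 1 gene, *Selenok*, lay wholly lower, as did 2% of all genes, with 2.15% wholly higher. Between the targeted groups libraries of all 9 genes overlapped, where 2.87% of all genes lay wholly lower and 2.22% wholly higher. The lowest interval bound among the 8 genes against sgInert was -0.77, for *Gpx3* in sgCebpa/b/d.

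**Figure D3:**
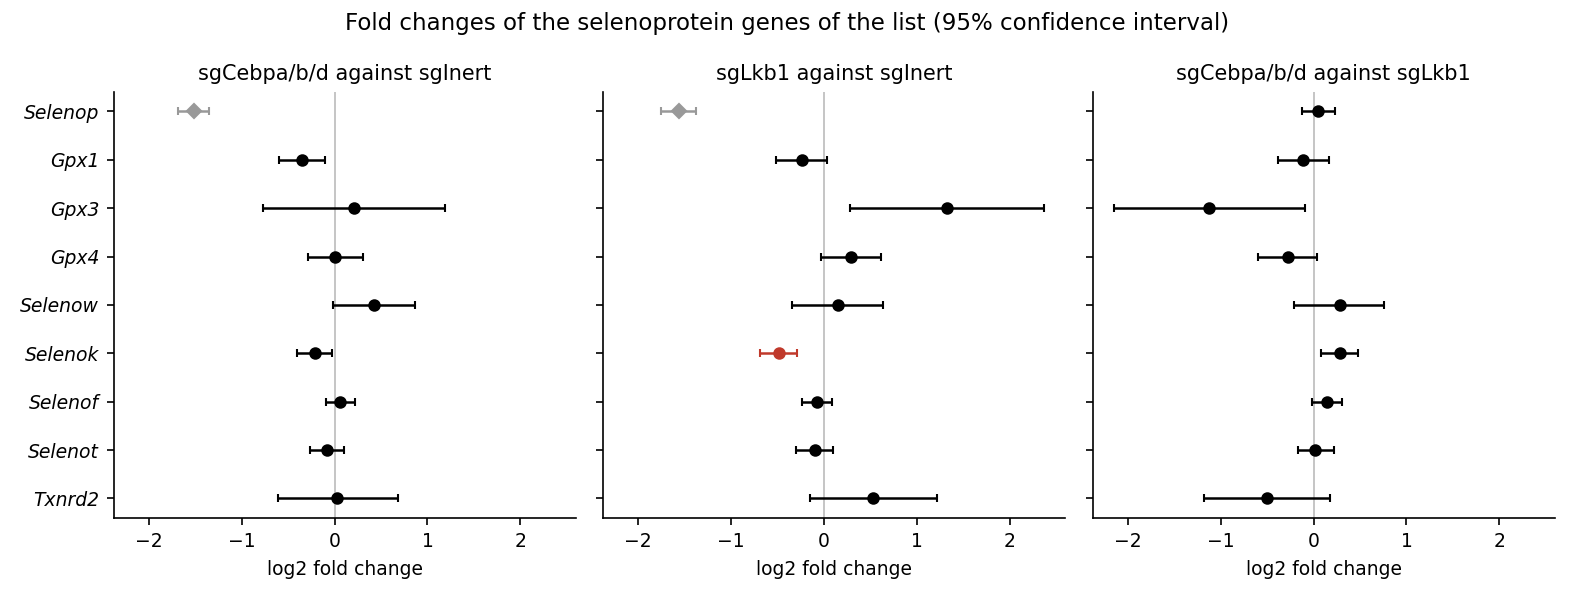
Log2 fold change and 95% confidence interval of each tested gene of the list in the 3 comparisons. *Selenop* stands at -1.51 and -1.56 against sgInert, where it is shown as a description, and no other interval against sgInert reaches below -0.77.

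The order of levels changed with *Selenop*. In sgInert the mean TPM ran from *Selenop* (817) through *Selenof* (400), *Gpx1* (271), *Selenot* (172), *Selenok* (116), *Gpx4* (48.1), *Selenow* (18.1) and *Gpx3* (12.4) to *Txnrd2* (4.47) and *Selenom* (0.203). Neighbours whose libraries overlapped there were *Selenof* with *Gpx1*, *Selenow* with *Gpx3* and *Gpx3* with *Txnrd2*. In both targeted groups *Selenof* came first, at 419 TPM in sgCebpa/b/d and 441 TPM in sgLkb1. *Selenop* came next, below every *Selenof* library of the same group and overlapping *Gpx1*.

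Summed over all 24 selenoprotein genes, the level was 1950, 2090 and 2510 TPM (lowest, median, highest) for sgInert, 1280, 1650 and 1720 TPM for sgCebpa/b/d and 1680, 1790 and 1930 TPM for sgLkb1. *Selenop* made up 34.8 to 39.4% of that sum for sgInert, 17.3 to 20.9% for sgCebpa/b/d and 15.7 to 18.9% for sgLkb1. With *Selenop* left out, the medians were 1340, 1330 and 1500 TPM and the ranges overlapped, at 1190 to 1590, 1040 to 1390 and 1370 to 1560 TPM. No group was wholly apart from another by the sum of the other 23 genes, and these sums were not tested. Between the targeted groups the overlap was small: sgCebpa/b/d 6 (1390 TPM) alone of its group lay above the lowest sgLkb1 library (1370 TPM). On log2(TPM + 1) the median of all genes was itself 0.18 in sgLkb1 against sgInert and -0.15 in sgCebpa/b/d against sgLkb1.

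**Figure D4:**
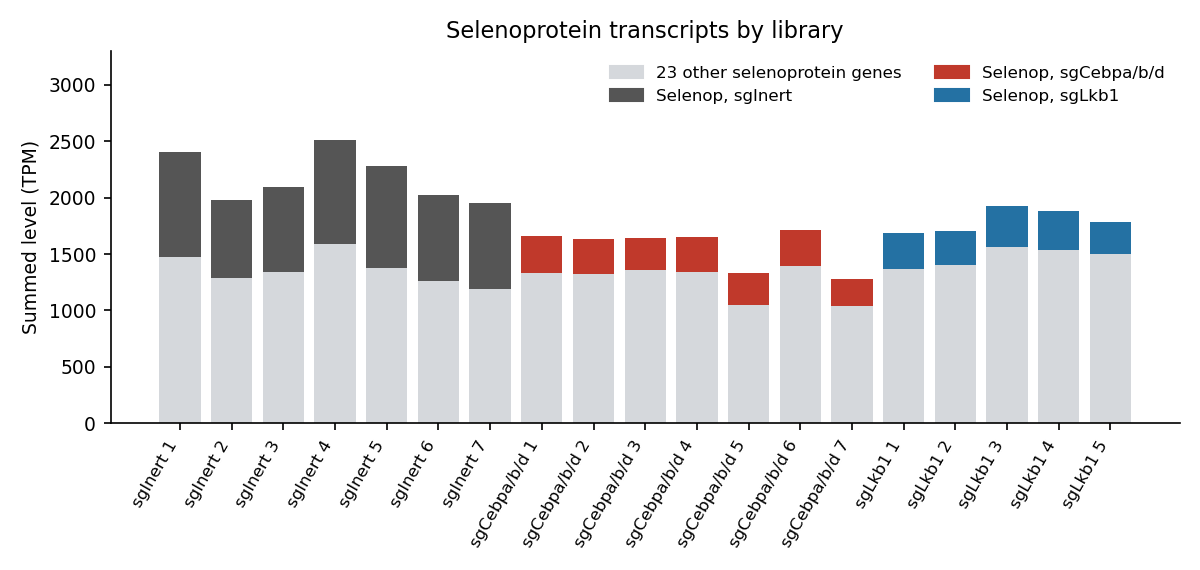
Summed TPM of the 24 mouse selenoprotein genes in each library (linear axis from 0), with *Selenop* in the colour of the virus group and the other 23 genes in grey. The *Selenop* segment is 34.8 to 39.4% of the bar in sgInert and 15.7 to 20.9% in the targeted groups, while the grey segments overlap between groups.

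Of the 14 selenoprotein genes outside the list, 11 passed the filter. *Dio1* and *Dio3* had at most 2 and 6 counts in a library and *Selenov* had 0 in all. In sgCebpa/b/d against sgInert, 2 of the 11 passed as lower and none as higher, where 5.36% and 4.73% of all genes did. The median of the 11 was -0.04, beside 0.02 over all genes tested. *Selenos*, a membrane protein of endoplasmic reticulum degradation, was at 6.53 ± 0.24 log2 CPM (SD, n = 7) for sgInert, 5.9 ± 0.12 (n = 7) for sgCebpa/b/d and 6.32 ± 0.23 (n = 5) for sgLkb1. It fell by 0.64 in sgCebpa/b/d (SE 0.11, edgeR's quasi-likelihood test, Benjamini-Hochberg adjusted p = 0.000513). Every sgCebpa/b/d library lay below every sgInert library, as for 2.09% of all genes. Among female libraries alone the *Selenos* value was -0.45 (adjusted p = 0.0943). *Sephs2*, itself a selenoprotein that makes the selenium donor for selenocysteine synthesis, fell by 0.64 (SE 0.14, adjusted p = 0.00504) from 5.31 ± 0.29 to 4.69 ± 0.24 log2 CPM, and passed in 11 of 15 alternative settings.

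Between the targeted groups, 3 of the 11 passed as lower in the sgCebpa/b/d libraries and none as higher, where 3.12% and 2.83% of all genes did. The 3 genes were *Selenos* (-0.43, SE 0.12, adjusted p = 0.0381), *Sephs2* (-0.56, SE 0.16, adjusted p = 0.033) and *Selenon* (-0.47, SE 0.14, adjusted p = 0.0445 by edgeR's quasi-likelihood test), which regulates calcium release in muscle. These calls lay close to the threshold and passed in 11, 14 and 7 of 19 fits that each left out 1 library. That of *Selenos* was lost without sgCebpa/b/d 2, 3, 4, 6 or 7 or sgLkb1 2, 3 or 5 (values from -0.51 to -0.35 over all 19 fits), and that of *Sephs2* without sgCebpa/b/d 6 or 7 or sgLkb1 2, 3 or 4 (-0.65 to -0.51). That of *Selenon* was lost without sgInert 2, 4 or 7, sgCebpa/b/d 2, 3, 4, 5 or 6, or sgLkb1 2, 3, 4 or 5 (-0.57 to -0.36). In sgLkb1 against sgInert 1 of the 11 passed, where 5.78% of all genes did. It was *Txnrd3*, a thioredoxin reductase of the testis, which fell by 0.51 (SE 0.15, adjusted p = 0.0423) and passed in 8 of 19 such fits. It was lost without sgInert 1, 3, 4, 5 or 7, sgCebpa/b/d 1 or 2, or sgLkb1 1, 2, 4 or 5 (values from -0.6 to -0.45). Its value in sgCebpa/b/d was -0.4 (SE 0.13, adjusted p = 0.0606). The cytosolic *Txnrd1* (0.18 and 0.3), the gut peroxidase *Gpx2* (-0.04 and 0.86), the methionine sulfoxide reductase *Msrb1* (0.02 and -0.09), *Selenoh* (0.02 and -0.08), *Selenoi* (-0.04 and -0.2), *Selenoo* (-0.07 and -0.56) and the deiodinase *Dio2* (1.73 and 0.98) passed in neither group against sgInert.

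**Figure D5:**
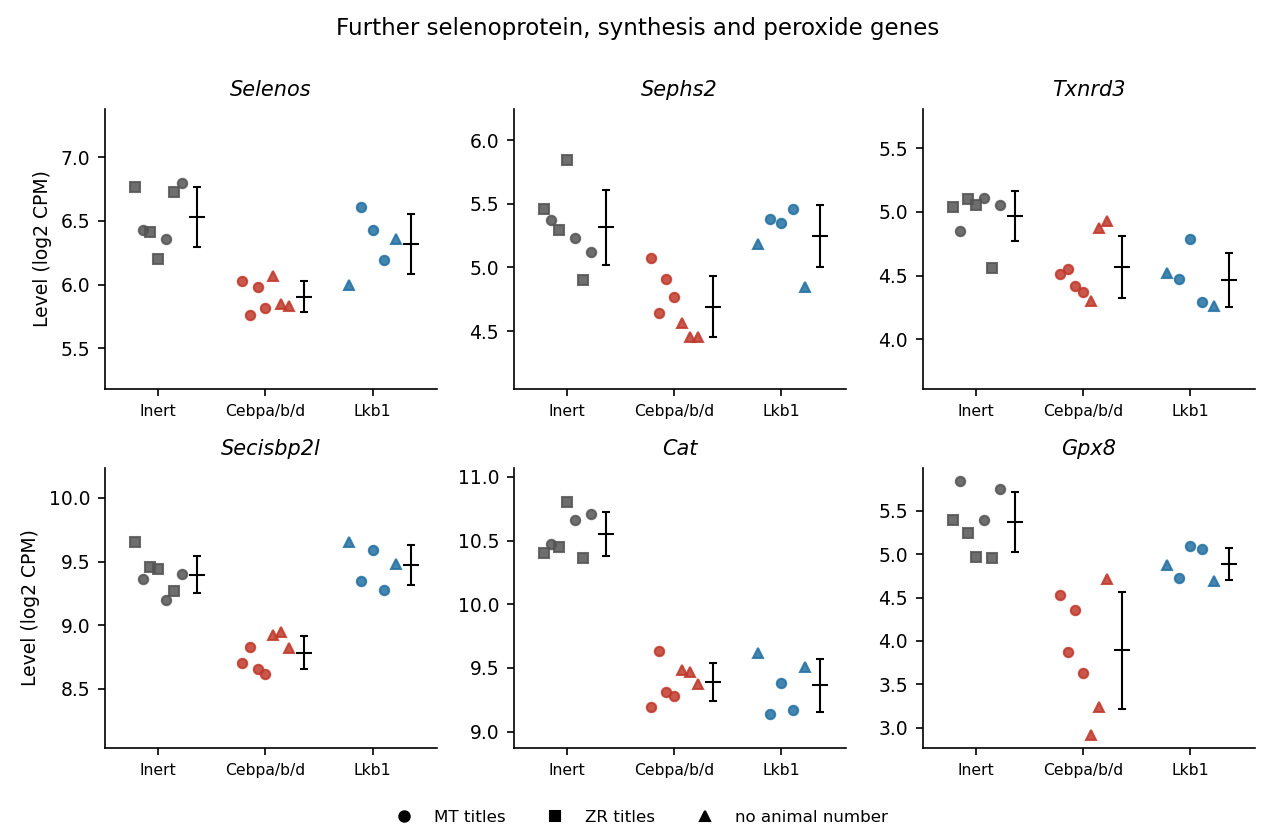
Levels (log2 CPM) of *Selenos*, *Sephs2*, *Txnrd3*, *Secisbp2l*, *Cat* and *Gpx8* in each library by virus group, 1 panel per gene with its own axis, with group means and SDs. All sgCebpa/b/d libraries lie below all sgInert libraries for *Selenos*, *Secisbp2l*, *Cat* and *Gpx8*, as for 2.09% of all genes. All sgLkb1 libraries lie below all sgInert libraries for *Cat*, as for 2% of all genes.

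Selenoprotein synthesis needs factors that read the SECIS element and charge the tRNA, and 9 of 9 such genes were tested. Of these, 2 passed as lower in sgCebpa/b/d against sgInert, none in either direction in sgLkb1 against sgInert (2 at an unadjusted p under 0.05), and 1 as lower in sgCebpa/b/d against sgLkb1. Of all genes, 5.36%, 2.97% and 3.12% passed as lower in these 3 comparisons, and 18.5% met the unadjusted level in sgLkb1 against sgInert. *Secisbp2l*, a paralog of the SECIS-binding protein, was at 9.4 ± 0.14 log2 CPM for sgInert, 8.79 ± 0.13 for sgCebpa/b/d and 9.47 ± 0.15 for sgLkb1. It fell by 0.61 against sgInert (SE 0.08, edgeR's quasi-likelihood test, Benjamini-Hochberg adjusted p = 4.04e-05) and by 0.69 against sgLkb1 (SE 0.09, adjusted p = 4.88e-05). Its libraries did not overlap in either comparison, where 2.09% and 2.87% of all genes lay wholly lower. *Secisbp2* itself, the main SECIS-binding protein, was at -0.12 and -0.08 against sgInert and passed in neither group. The ribosomal protein gene *Rpl30*, whose product also binds the SECIS element, fell by 0.51 in sgCebpa/b/d (SE 0.12, adjusted p = 0.00877), and ribosomal protein genes have processed copies that can share reads.

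Among the receptors and enzymes that handle selenium, 0 of 6 tested genes passed edgeR's quasi-likelihood test in any comparison, with 1, 1 and 2 at an unadjusted p under 0.05, a level met by 23.2%, 18.5% and 18.3% of all genes. At the adjusted threshold 10.1%, 5.78% and 5.96% of all genes passed. *Lrp2*, the receptor that takes up selenoprotein P in kidney, was at 0.07 (interval -0.25 to 0.39) in sgCebpa/b/d and -0.24 (interval -0.59 to 0.1) in sgLkb1, and *Scly*, which releases selenium from selenocysteine, was at -0.26 and -0.41. The 4 transcripts known to fall first when selenium is short, *Gpx1*, *Selenow*, *Selenoh* and *Msrb1*, passed in 0 of 4 cases in each comparison, with 1, 0 and 0 at an unadjusted p under 0.05. Counts of 0 among 6 or 4 genes do not set them apart from all genes at these shares. The median log2 differences of the 4 transcripts against sgInert were 0.02 and -0.08. Among 5 tested relatives that carry cysteine in place of selenocysteine, *Gpx8*, a peroxidase of the endoplasmic reticulum, fell by 1.41 in sgCebpa/b/d against sgInert (SE 0.24, adjusted p = 0.000338) and by 0.9 against sgLkb1 (SE 0.25, adjusted p = 0.0339). Of all genes, 5.36% and 3.12% passed as lower in these comparisons. The methionine sulfoxide reductase *Msrb3* rose by 0.43 in sgLkb1 against sgInert (SE 0.12, adjusted p = 0.0332), where 2.81% of all genes passed as higher. The *Msrb3* call passed in 8 of 15 alternative settings and was lost without sgInert 5, sgLkb1 1 or sgLkb1 5 (values from 0.35 to 0.48 over the 19 fits that left out 1 library). The *Gpx8* call against sgLkb1 passed in 11 of 15 settings and was lost without sgCebpa/b/d 2, 4 or 6 or sgLkb1 1, 3 or 4 (-1.09 to -0.79).

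The glutathione and peroxide genes that work beside the selenoproteins had 2 of 16 lower in each targeted group against sgInert and none higher. Of all genes, 5.36% passed as lower and 4.73% as higher in sgCebpa/b/d, and 2.97% and 2.81% in sgLkb1. *Cat*, the catalase of peroxisomes, had the larger change, with mean levels of 10.55 ± 0.17 log2 CPM (SD, n = 7) for sgInert, 9.39 ± 0.15 (n = 7) for sgCebpa/b/d and 9.36 ± 0.21 (n = 5) for sgLkb1. It fell by 1.16 in sgCebpa/b/d (SE 0.1, edgeR's quasi-likelihood test, Benjamini-Hochberg adjusted p = 9.88e-08) and by 1.18 in sgLkb1 (SE 0.11, adjusted p = 1.04e-06). The other genes that passed were *Acsl4*, which loads polyunsaturated fatty acids into lipids, in sgCebpa/b/d (-0.6, SE 0.15, adjusted p = 0.0127) and the thioredoxin gene *Txn1* in sgLkb1 (-0.37, SE 0.09, adjusted p = 0.018). The *Txn1* call passed in 8 of 15 alternative settings, with values down to -0.15, and was lost without sgLkb1 1 or sgLkb1 2 (-0.32 in each). Between the targeted groups 1 of the 16 passed, where 5.96% of all genes did. It was the cystine transporter gene *Slc7a11*, at -2.29 in sgCebpa/b/d (SE 0.62, adjusted p = 0.0283). The *Slc7a11* value ran from -4.36 to -1.11 over 15 alternative settings, of which 12 passed, and the call was lost without sgCebpa/b/d 1, 2, 4 or 6 or sgLkb1 3 or 4 (-2.76 to -2.02 over the 19 fits).

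Of 6 partners in the endoplasmic reticulum, 1 passed as lower in sgCebpa/b/d against sgInert, where 5.36% of all genes did, and none passed in the other comparisons. It was *Derl1*, a component of the degradation channel (-0.4, SE 0.11, adjusted p = 0.0237 by edgeR's quasi-likelihood test). It passed in 9 of 15 alternative settings and was lost without sgInert 1, sgCebpa/b/d 6 or sgCebpa/b/d 7 (values from -0.44 to -0.32). Of 3 tested genes named as regulators of *Selenop* transcription in liver, *Foxo1* was at 0.03 and -0.13 and *Foxo3* at -0.56 and -0.68 (adjusted p = 0.105 in each), so neither passed against sgInert. *Ppargc1a*, a coactivator, passed as lower in sgCebpa/b/d against sgLkb1 (-1.58, SE 0.36, adjusted p = 0.00877), where 3.12% of all genes did. The part of these regulators in the *Selenop* level was not tested.

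The genes whose log2 CPM followed *Selenop* most closely over the 19 libraries were *Cat* (Pearson r = 0.952), *Cobll1* (0.931), *Hc* (0.929), which encodes complement C5, *Nucb2* (0.91) and the copper transporter gene *Slc31a1* (0.908), of 10621 genes compared. The most opposed were *Pitpnm3* (-0.931), the creatine kinase gene *Ckb* (-0.927) and *Dpep2* (-0.922). These points share their libraries and 3 group means, and with the group means removed the values were 0.0155 for *Cat*, 0.494 for *Cobll1*, 0.406 for *Hc*, 0.367 for *Nucb2* and 0.545 for *Slc31a1*. The likeness of *Cat* to *Selenop* was thus between groups and not among libraries of a group. Of the list itself, *Selenok* (0.69) and *Gpx1* (0.589) were highest, at ranks 301 and 653 of 13986 genes, while *Selenow* (-0.406), *Gpx3* (-0.377), *Txnrd2* (-0.337) and *Gpx4* (-0.188) ran the other way. Group means were not removed from these list values. They therefore include the group difference by which *Selenop* was chosen, and do not show that a gene followed *Selenop* among libraries of a group.

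Promoter windows of the 10 genes were read for motifs of factors named in this study or in *Selenop* biology (RefSeq, GRCm38.p6, 250 bases before to 50 after each start, both strands, 32851 windows of 27025 genes, any window of a gene counting). The C/EBP motif TTGCNNAA was in 0 of the 10 genes, beside 12.2% of all genes and 10.1% of the genes tested, and the CRE motif TGACGTCA was in 0 of 10, beside 2.03% and 3.67%. The FOXO motif GTAAACA was in *Selenop* alone of the 10, beside 4.05% of all genes and 3.13% of those tested. It lay 24 bases before 1 of 3 *Selenop* starts, shown with the motif in capitals because it was the rarest match among the members.
Selenop, chr15:3270942-3270970, plus strand: cagagggcgagGTAAACAacagggctata

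The NKX2-1 motif CACTTG was in 4 of the 10 genes, *Selenop*, *Selenow*, *Selenok* and *Selenot*, beside 15.4% of all genes and 13.3% of those tested. Genes with several starts, such as *Selenop* with 3 and *Gpx4* with 4, had more windows in which to match, while *Selenow*, *Selenok* and *Selenot* had 1 start each. The *Selenop* match was a single site, 66 bases before 1 start and 110 bases before another. No motif overlapped another in the *Selenop* windows. A match is a description of these letters and does not show that a factor binds there.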

How the data were processed

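Bulk RNA-seq libraries of sorted neoplastic cells were prepared by the authors from rRNA-depleted RNA, sequenced as paired ends, aligned to mm10 with STAR 2.6.1d and quantified per gene with RSEM 1.2.30. The deposited files held expected counts, TPM and effective lengths per gene for each library. RSEM was run with standard settings, which do not use strand.

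Expected counts were rounded and fitted with edgeR 4.0.16 (R 4.3.3) in 1 quasi-likelihood model of all 19 libraries with TMM scaling and no covariate, after a filter on low counts (filterByExpr, minimum count 10, minimum total 15). A gene passed at a Benjamini-Hochberg adjusted p under 0.05 over all 13986 genes tested. Levels are the deposited TPM, or log2 CPM with a prior count of 2. SEs were taken from the F statistic and intervals are 95% confidence intervals. Totals were 2760731 to 9944134 counts per library (median 6028922), which limits genes such as *Selenom* and *Txnrd2*. No pair of libraries of a group agreed within sampling noise (chi-square per gene 6.67 to 73.7).

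Alternatives used DESeq2 1.42.0, limma 3.58.1 (also on log2(TPM + 1), a pseudocount of 1), other scaling and filters, covariates, library subsets and each library left out. The scripts were tested on simulated data. The members and gene lists were chosen with earlier results of these data known. The text names the 10 members, the other 14 mouse selenoprotein genes, the genes of 7 further lists that passed in any comparison with up to 2 others per list, and the 5 most and 3 least *Selenop*-like genes with a mean log2 CPM above 2. Coordinates and coding sequence came from GENCODE M21 (GRCm38, the assembly named mm10) and promoters from RefSeq. All 10 members were found in each. A further allele shared by all mice is not reported here.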

Additional observations from a re-analysis of the deposited data

Results flagged for a closer look

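Among 60 sets of libraries of 1 group and 1 selenoprotein gene, 2 had a library far from the rest (a gap to its nearest neighbour above Dixon's 95% critical value), where chance at 1 in 20 gives 3. *Gpx2* was at -0.17 log2 CPM in sgInert 1, the lowest of 7 libraries, with the others at 1.33 to 2.1. *Selenoh* was at 5.02 log2 CPM in sgLkb1 3, the highest of 5 libraries, with the others at 4.53 to 4.63. Neither gene passed in any comparison.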

How the results depend on the processing

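The counts below are of tested list genes that passed, without *Selenop* in the comparisons against sgInert. In sgCebpa/b/d against sgInert the count rose from 0 to 1 with DESeq2 (*Gpx1*), with sex as a covariate (*Gpx1*) and with title series as a covariate (*Selenow*), and ran from 0 to 1 when each library was left out, with 1 without sgInert 6, sgInert 7 or sgCebpa/b/d 5. In sgLkb1 against sgInert the count was 1, and it became 3 with limma on log2(TPM + 1) (*Gpx3* and *Gpx4* added), 2 with sex as a covariate, 2 with title series as a covariate, 2 in MT-numbered libraries only, 2 in female libraries only (*Gpx3* added in each) and 0 when an absolute log2 fold change above 1 was also required. In sgCebpa/b/d against sgLkb1 it rose from 0 to 1 with sex as a covariate, with title series as a covariate and in female libraries only (*Gpx3* in each). The cause was not tested. With title series as a covariate, and in MT-numbered libraries only, the comparisons with sgInert rest on its 3 MT-titled libraries. On log2(TPM + 1), the median of all genes shifted to 0.18 in sgLkb1 against sgInert, with 148 genes lower and 783 higher against 416 and 393 in the edgeR fit, and to -0.15 in sgCebpa/b/d against sgLkb1 (805 and 162 against 437 and 396).

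The replicate numbers of different groups did not pair the libraries: of 17 same-numbered pairs, 2 had a correlation of deviations over 0.1 (range -0.147 to 0.232). With the replicate number as a block the counts were 0, 1 and 0, as without it. Female libraries only, and *Gpx4* summed with *Gpx4-ps2*, were chosen after seeing the data.

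Over single genes, leaving out each library left the call as it was in 1643 fits, gained a call in 11 and lost one in 56, and the other alternatives gave 1259, 28 and 60. These include values that passed in neither fit and changed sign, 48 and 77 in number. No value that passed changed sign. *Selenop* in sgLkb1, which has no test, moved from -1.56 to -1.34 on log2(TPM + 1), by more than 1 SD of the sgInert libraries. Depth limits *Selenom* (at most 23 counts per library), *Txnrd2* (8 to 88) and *Selenow* (22 to 78).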
